A study of Rattus norvegicus with 4 samples.

Results

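Calcium that enters a neuron at an active synapse binds calmodulin, and calcium-loaded calmodulin switches on kinases and a phosphatase that together set how strongly the synapse responds. The calcium/calmodulin-dependent protein kinase II (CaMKII) holoenzyme is built from alpha, beta, gamma and delta subunits, calmodulin kinase IV (CaMKIV) carries the signal into the nucleus, and the transcription factor CREB, once phosphorylated, turns on genes needed for lasting memory in the hippocampus. Calcineurin, the calcium-activated phosphatase, opposes the kinases, while neurogranin and GAP-43 are small neuronal proteins that hold calmodulin when calcium is low. The genes examined were the 9 that encode these proteins, chosen by symbol: the CaMKII subunit genes Camk2a, Camk2b, Camk2g and Camk2d, the CaMKIV gene Camk4, Creb1, the calcineurin catalytic subunit gene Ppp3ca, and the calmodulin-binding genes Nrgn and Gap43. All 9 were listed in every library, out of 17445 rows in the files as a whole and 16375 rows shared by all 4 libraries, and all had a mean above 1 FPKM (fragments per kilobase of the gene, relative to all fragments of its library).

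The tissue was hippocampus of Wistar rat pups on postnatal day 1. Dams, 10 weeks old per the sample records, received bisphenol A (BPA), an estrogen-like chemical used to make plastics, by mouth at 5000 µg per kg of maternal body weight each day, or the vehicle without BPA, from gestation day 1 until they gave birth. The 4 groups were control and BPA male offspring and control and BPA female offspring, and each was a single library made from a pool of 3 hippocampi, so no group has a replicate library and variation between pups or litters within a group was not measured. Wherever 4 values follow each other, they are those of control males, BPA males, control females and BPA females, in this order. Fragment totals recovered from the values were 8660000 to 8880000 per library. The 9 genes carried between 163 fragments (Camk2d, female BPA) and 6516 fragments (Gap43, female BPA) in a library, so that Camk2d is the least precise.

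The tissue label was compared with marker genes. The neuronal marker Rbfox3 was between 34.7 and 37.7 FPKM, and Neurod6, a marker of pyramidal neurons, was between 135 and 161 FPKM. Zbtb20, a transcription factor of hippocampal neurons, was at 17.6, 21.6, 23.7 and 16.2 FPKM in the 4 libraries, and Prox1, which marks granule neurons of the dentate gyrus, was at 12.4, 10.2, 12.8 and 7.61 FPKM. Genes of neighbouring tissues also differed among the libraries: the choroid plexus gene Ttr was at 256, 690, 3.96 and 42.4 FPKM, and the meningeal gene Ptgds was at 28.9, 40.2, 209 and 18.1 FPKM. The part of these differences in any value below was not tested, and in bulk tissue fewer cells of a type and less RNA per cell cannot be told apart.

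**Figure D1:**
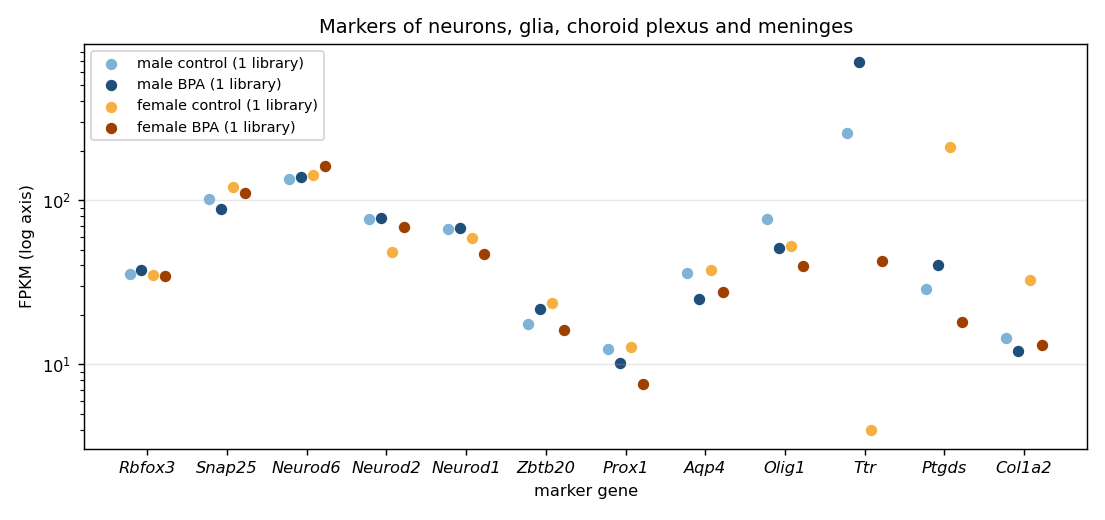
FPKM on a log axis of 12 marker genes, with 1 point for each of the 4 libraries. Rbfox3 lies between 34.7 and 37.7 FPKM in every library, whereas Ttr ranges from 3.96 to 690 FPKM and Ptgds from 18.1 to 209 FPKM.

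By mean FPKM over the 4 libraries, a scale that is per length and so allows genes to be set beside each other, Gap43 stood at 469, Camk2b at 177, Nrgn at 176, Camk2a at 119, Ppp3ca at 90.7, Camk2g at 49.4, Camk4 at 33.4, Creb1 at 14.8 and Camk2d at 9.51. Gap43 was above 99.4% of the listed rows and Camk2d above 56.1%. Camk2b and Nrgn were neighbours whose order changed from library to library, since Nrgn was the higher in both control libraries and Camk2b in both BPA libraries. Every other pair of neighbours kept its order in all 4 libraries.

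**Figure D2:**
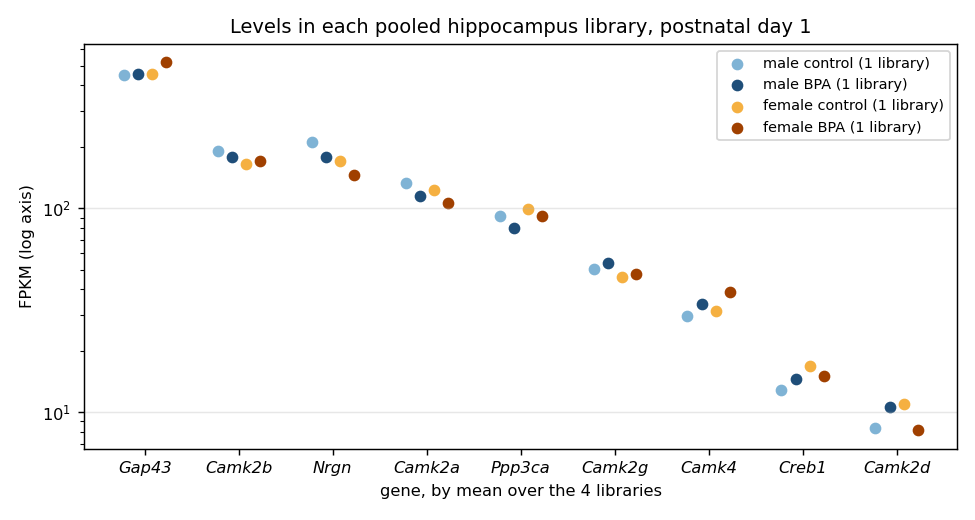
FPKM on a log axis of the 9 genes, ordered by their mean, with 1 point for each of the 4 libraries. The genes span from 8.14 FPKM (Camk2d, female BPA) to 519 FPKM (Gap43, female BPA), and the 4 libraries lie close together within most genes.

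The comparison within each sex asks whether prenatal BPA exposure went with a different level of these genes in male and in female offspring. With 1 library per group there is no test of it. Differences are therefore given on the log2(FPKM + 1) scale with approximate 95% intervals that cover counting error only, and an absolute difference of at least 0.25 was taken as the size of interest. That size was passed by 24.6% of 13508 rows in males and by 32.3% of 13550 rows in females, and among rows with a gene ID and a mean of at least 8 FPKM, the range in which the 9 genes lie, by 12.1% and 19.5%. In males 1 of the 9 genes passed it (Camk2d) and in females 2 of 9 (Camk2d and Camk4), which is 11.1% and 22.2%, below the shares of all rows and close to those of well expressed rows. Quantile normalization left the male count at 1 and put 4 of 9 past it in females, where 29.7% of all rows and 18.4% of well expressed rows passed. Of the 9 genes, 6 differed in the same direction in both sexes, as did 56.0% of 13542 rows, and Camk2b, Camk2d and Creb1 differed in opposite directions.

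The comparison over both sexes set 2 BPA libraries against 2 control libraries with limma, with a Benjamini-Hochberg adjusted p under 0.05 as the threshold. It called 0 of the 9 genes, at a background of 0% of 13542 rows. At an unadjusted p under 0.05 it called 0 of the 9 at a background of 4.7%, or 637 rows. An exact permutation test of 2 against 2 libraries cannot give a two-sided p below 0.333, and in simulated data of this design 197 of 200 rows with a log2 fold of 2 were recovered by limma, but 0 of 200 with a log2 fold of 0.5, a size that none of the 9 genes reached in the combined comparison.

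Camk2a (gene ID 25400, on chromosome 18 of the GRCr8 assembly) encodes the alpha subunit, the form most tied to long-term potentiation and known to increase as forebrain synapses mature after birth. It stood at 132 FPKM in control males and 115 in BPA males, with 123 in control females and 106 in BPA females. Both BPA libraries lay below both control libraries. The difference of BPA from control was -0.20 in males (interval -0.28 to -0.13) and -0.20 in females (-0.28 to -0.13), or 13.3% less FPKM in each sex. Over both sexes limma gave -0.20 with a standard error of 0.10 and an adjusted p of 0.973.

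Camk2b (gene ID 24245, chromosome 14) encodes the beta subunit, which binds actin and predominates early in development. It stood at 191 FPKM in control males and 179 in BPA males, with 166 in control females and 170 in BPA females, so that both male libraries were above both female libraries and the treatments overlapped. Its difference was -0.09 in males (interval -0.14 to -0.04) and 0.04 in females, where the interval of -0.01 to 0.09 includes 0 and where quantile normalization turned the sign, to -0.03. The limma value over both sexes was -0.02 with a standard error of 0.11 (adjusted p of 0.989), and it became 0.08 without the male control library.

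Camk2g (gene ID 171140, chromosome 15), the gamma subunit gene, known for carrying calmodulin toward the nucleus, was at 50.5, 53.8, 45.9 and 47.6 FPKM in the 4 libraries. Its differences of 0.09 in males and 0.05 in females both had intervals that include 0. The combined value of 0.07 (standard error 0.11, limma adjusted p of 0.984) changed sign without the male BPA library, to -0.02.

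Camk2d (gene ID 24246, chromosome 2), the delta subunit gene, best known from heart muscle, was the lowest of the 4 subunit genes. It stood at 8.40 FPKM in control males and 10.6 in BPA males, with 10.9 in control females and 8.14 in BPA females, from 170, 213, 216 and 163 fragments. The BPA library was the higher of the pair in males and the lower in females, and the treatments overlapped. The difference was 0.30 in males (interval 0.04 to 0.56) and -0.38 in females (-0.65 to -0.12). The female difference minus the male difference was -0.68, with a counting interval of -1.06 to -0.31. Whether the sexes differ beyond variation between pups was not tested, since the design has no library left to estimate it, and the limma value over both sexes was -0.04 with a standard error of 0.18 (adjusted p of 0.990).

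Within a library, ratios of these genes do not depend on a scale factor applied to the whole library. Camk2a per Camk2b was 0.694 in control against 0.641 in BPA males, and 0.740 in control against 0.623 in BPA females, lower in the BPA library of either sex. The summed FPKM of the 4 subunit genes was 382, 358, 345 and 332 in the 4 libraries. Camk2b supplied 48.0% to 51.3% of that sum and Camk2a 32.0% to 35.5%. Camk2a made up 34.7% of it in control against 32.0% in BPA males, and 35.5% in control against 32.0% in BPA females. Camk2g supplied 13.2% to 15.0% and Camk2d 2.2% to 3.17%. The subunit genes are paralogs of like sequence, and fragments that match more than 1 of them were apportioned by the submitters' software, so the split among them is uncertain to that extent.

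**Figure D3:**
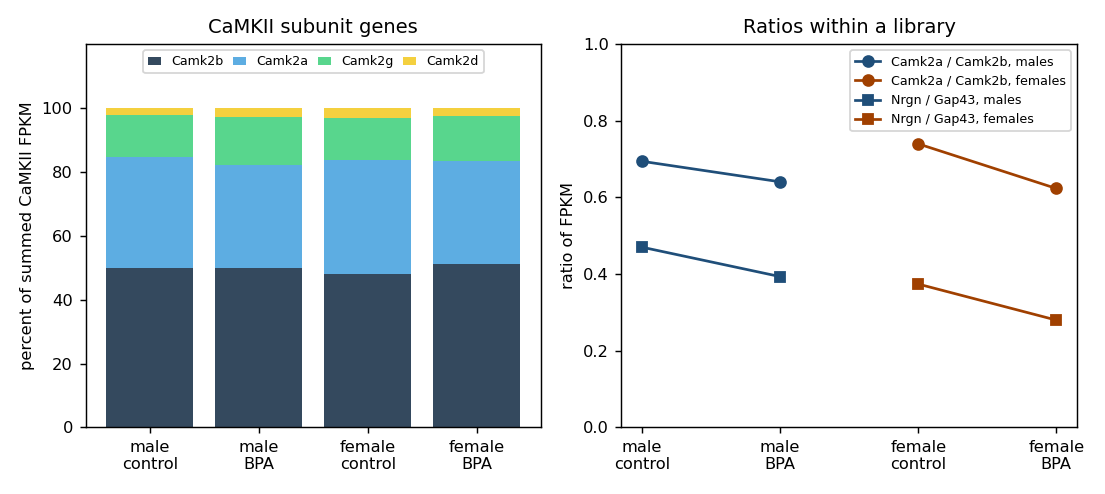
Left, share of the summed FPKM of the 4 CaMKII subunit genes in each library, in percent. Right, the ratio of FPKM of Camk2a to Camk2b (circles) and of Nrgn to Gap43 (squares) in each library, with a line joining control and BPA of a sex. Both ratios are lower in the BPA library in each sex, from 0.694 to 0.641 and from 0.740 to 0.623 for Camk2a to Camk2b.

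The nuclear arm of the pathway was represented by Camk4 and Creb1. Camk4 (gene ID 25050, chromosome 18) stood at 29.5 FPKM in control males and 34.1 in BPA males, with 31.3 in control females and 38.9 in BPA females. Both BPA libraries were above both control libraries. The difference was 0.20 in males (interval 0.12 to 0.28) and 0.30 in females (0.23 to 0.38), or 15.4% and 24.2% more FPKM. Over both sexes limma gave 0.25 with a standard error of 0.11 and an adjusted p of 0.973, the highest combined value among the 9 genes, and the value ranged from 0.16 to 0.35 as each library was left out. Camk2a and Camk4, which encode calmodulin-dependent kinases of the synapse and of the nucleus, thus differed from control in opposite directions in each sex, and neither difference passed the test.

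Creb1 (gene ID 81646, chromosome 9) encodes CREB itself, whose activity is set mostly by phosphorylation, which RNA levels do not show. It stood at 12.9 FPKM in control males and 14.5 in BPA males, with 16.8 in control females and 15.0 in BPA females. Both BPA libraries lay between the controls, since male control was the lowest and female control the highest. The difference was 0.16 in males (interval 0.05 to 0.26) and -0.15 in females (-0.25 to -0.06). The female difference minus the male difference was -0.31 (counting interval -0.45 to -0.17), which was not tested beyond counting error, and the limma value over both sexes was 0.001 with a standard error of 0.15 (adjusted p of 0.999). Between the control libraries Creb1 was higher in females by 0.35 (0.26 to 0.45), against 0.05 (-0.05 to 0.15) between the BPA libraries.

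CREB binds the cyclic AMP response element, the palindrome TGACGTCA, or its shorter core TGACG, which was searched on both strands. RefSeq promoter windows of the GRCr8 assembly, from 250 bases before to 50 bases after the start, were matched for 8 of the 9 genes, in 9 windows. The palindrome was in 0 of these genes and in 1.83% of all 33469 windows, and the core was in 2 of the genes, Creb1 and Camk2a, and in 21.2% of all windows, those with the palindrome included. In 1 of the 2 Creb1 windows the core occurs at 80 and at 59 bases before the start, and once more after it. The stretch that holds both, at chr9:73397427-73397456 on the plus strand, is shown because Creb1 encodes the factor that reads these letters, with the cores in capitals.
Creb1: agTGACGcggcggaggtgtagttTGACGcg
In Camk2a single cores lie 150 and 92 bases before the start. These matches describe letters in a window and do not show binding.

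The phosphatase arm was represented by Ppp3ca (gene ID 24674, chromosome 2), which encodes the alpha catalytic subunit of calcineurin. It was at 92.0, 80.4, 98.6 and 91.6 FPKM in the 4 libraries. The BPA library was the lower of the pair in each sex, and both BPA libraries lay below both control libraries, female BPA only just. Its difference was -0.19 in males (interval -0.27 to -0.12) and -0.11 in females (-0.18 to -0.03), and limma over both sexes gave -0.15 with a standard error of 0.11 and an adjusted p of 0.973. That value ranged from -0.24 to -0.06 as each library was left out. As a share of the summed FPKM of the 3 catalytic subunit genes, Ppp3ca was 41.2% in control against 38.9% in BPA males, and 40.2% in control against 38.5% in BPA females. Its paralog Ppp3cb, the beta catalytic subunit gene, made up 52.1%, 53.5%, 52.4% and 53.6% in the same order.

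The calmodulin-binding genes Nrgn and Gap43 differ in where their proteins sit, neurogranin in dendrites and GAP-43 in growing axons. Nrgn (gene ID 64356, chromosome 8) stood at 212 FPKM in control males and 178 in BPA males, with 170 in control females and 145 in BPA females. It was lower in the BPA library of each sex and lower in females than in males under each treatment, so the treatments overlapped between the sexes. The difference of BPA from control was -0.25 in males (interval -0.33 to -0.16), just short of the size of interest at -0.249, and -0.23 in females (-0.32 to -0.13), or 15.9% and 14.5% less FPKM. The limma value over both sexes was -0.24 with a standard error of 0.15 (adjusted p of 0.973), and it ranged from -0.40 to -0.08 as each library was left out.

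Gap43 (gene ID 29423, chromosome 11), a marker of axon growth, was at 451 FPKM in control males and 453 in BPA males, with 454 in control females and 519 in BPA females. Female BPA stood above the other 3, which lay close together. The difference was 0.01 in males (interval -0.05 to 0.06) and 0.19 in females (0.14 to 0.24). The female value depended on the normalization, and with quantile normalization it was 0.02. The median of all rows in females moved the other way, from -0.04 to 0.001, so a shift of the whole library does not describe the change in Gap43. Over both sexes limma gave 0.10 with a standard error of 0.11 and an adjusted p of 0.973. That value was 0.001 without female BPA, 0.20 without male BPA, and 0.02 with quantile normalization.

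Nrgn per Gap43 was 0.470, 0.393, 0.374 and 0.280 in the 4 libraries, lower with BPA in each sex and lowest in BPA females. Nrgn per Camk2a changed less with treatment, at 1.60 and 1.55 in the male libraries and 1.39 and 1.37 in the female libraries. Neuronal marker genes are set beside these values: the presynaptic genes Snap25 (101, 87.8, 120 and 110 FPKM in the 4 libraries) and Syt1 (93.2, 82.8, 94.3 and 83.7 FPKM) were lower in the BPA library of each sex, and Dcx, which marks young neurons, was higher (244, 278, 289 and 330 FPKM in the 4 libraries). Among the other genes of the neuron list, Rbfox3 differed by 0.08 in males and -0.01 in females, and Map2 by -0.02 and 0.005. Tubb3 differed by 0.05 in males and 0.28 in females, the only gene of the list past 0.25 in either sex. The median of the 7 genes was 0.03 in males and 0.005 in females. The part of neuronal maturity or of dissection in the values of Nrgn, Camk2a and Gap43 was not tested.

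**Figure D4:**
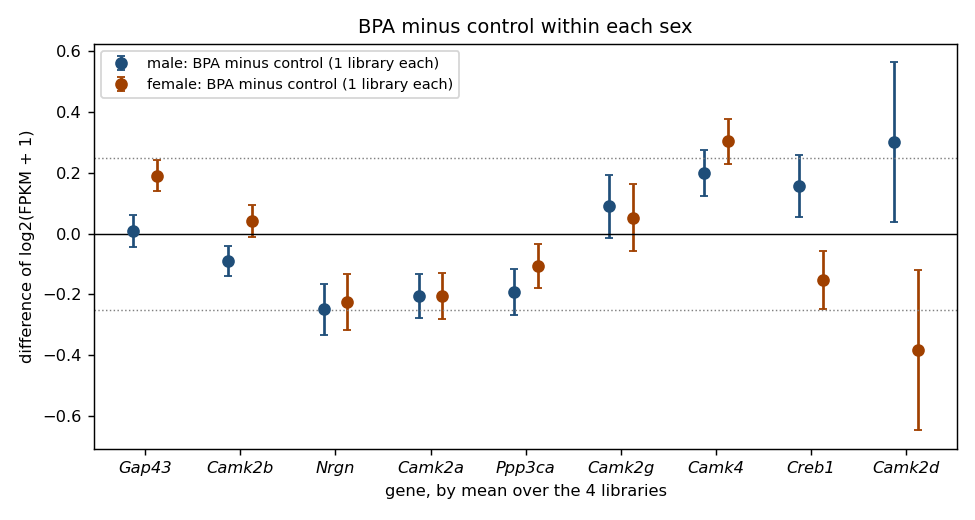
Difference of log2(FPKM + 1), BPA minus control, for the 9 genes in males and in females, with bars for the approximate 95% interval of counting error and dotted lines at 0.25 either side of 0. Nrgn and Camk2a lie below 0 and Camk4 above 0 in both sexes, and Creb1 and Camk2d lie on opposite sides of 0.

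Nrgn had the widest range of the 9 genes over the 4 libraries, 0.54 on the log2(FPKM + 1) scale, and the rows whose deviations were closest to it were named by the root mean square difference over the 4 libraries. These were Adck4 (20.8, 17.2, 16.4 and 14.0 FPKM), Cep131 (29.8, 24.5, 23.8 and 19.9 FPKM) and Ncan (215, 180, 169 and 149 FPKM), with root mean square differences of 0.0067, 0.012 and 0.015. This likeness describes these 4 libraries alone. Ncan encodes neurocan, a proteoglycan of the brain extracellular matrix.

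The comparison of the sexes over both treatments asks whether the genes differ between female and male offspring. limma called 0 of the 9 genes, at a background of 0.00738% of rows, which is 1 row. At an unadjusted p under 0.05 it called 1 of the 9, Nrgn, at a background of 10.6% or 1442 rows. Nrgn was lower in females by 0.32 between the control libraries (interval of the difference -0.40 to -0.23) and by 0.29 between the BPA libraries (-0.39 to -0.20), and the limma value was -0.30 with a standard error of 0.11 and an adjusted p of 0.422, ranging from -0.43 to -0.18 as each library was left out. Camk2b and Camk2g were also lower in both female libraries than in both male libraries, with values of -0.14 (standard error 0.07) and -0.16 (standard error 0.08), and limma adjusted p of 0.551 and 0.545. Creb1 and Gap43 were higher in both female libraries than in both male libraries. For the 6 genes other than Nrgn, Camk2b and Camk2g the limma value lay between -0.11 (Camk2a) and 0.20 (Creb1). As each library was left out, it ranged from -0.21 to -0.009 for Camk2a and from 0.009 to 0.20 for Gap43. The range was 0.05 to 0.24 for Ppp3ca and 0.12 to 0.28 for Creb1. The sign for Camk4, 0.13 over both treatments, turned to -0.02 without the female BPA library.

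The other genes of the pathway were read from 7 groups that hold 99 genes, including Nrgn and Gap43. Of the remaining genes 92 were listed in the files, and 10 of 88 with a mean of at least 1 FPKM passed a difference of 0.25 in males, 5 higher and 5 lower in the BPA library, with a median of -0.05 against -0.002 over all rows. In females 19 of 85 passed it, 9 higher and 10 lower, with a median of -0.03 against -0.04 over all rows. These shares of 11.4% and 22.4% stand beside 24.6% and 32.3% of all rows under the same filter, and beside 12.1% and 19.5% of rows with a mean of at least 8 FPKM, a level that some of these genes do not reach. limma called 0 of 87 in the treatment comparison and 0 of 87 in the sex comparison. At an unadjusted p under 0.05 it called 2 (Prkca and Pcp4) and 10 of the 87, at backgrounds of 4.7% and 10.6% of all rows. In the groups that follow, the genes furthest above and below control are those with the highest and lowest mean of the male and female differences, and need not be the furthest in each sex.

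In the group of calmodulin and its buffers, which holds 10 genes with Nrgn and Gap43, 0 of 10 passed 0.25 in males and 3 of 9 in females, all 3 of them higher in the BPA library. The gene furthest above control by that mean was Pcp4, whose protein speeds calcium exchange on calmodulin, at 164, 190, 171 and 212 FPKM, with differences of 0.21 and 0.31. The gene furthest below was Nrgn, whose protein, like that of Pcp4, binds calmodulin through an IQ motif. In females Basp1 and Marcksl1 were further above control than Pcp4, by 0.32 and 0.31.

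Among the kinases and regulators around CaMKII, 0 of 10 passed 0.25 in males and 3 of 10 in females, 1 higher and 2 lower. Camk2n1, which encodes an inhibitor of CaMKII, was furthest above control, at 76.2, 82.7, 69.6 and 86.0 FPKM, with differences of 0.12 in males and 0.30 in females. Camkk1, a kinase that activates CaMKIV, was furthest below, at 17.2, 15.6, 17.8 and 14.9 FPKM, with differences of -0.13 and -0.25. Camkk1 therefore lay on the other side of control from Camk4, the gene of its substrate. Camkk2, in the same group, did so in males only, with differences of -0.09 in males and 0.07 in females.

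Among the partners of calcineurin, 1 of 11 passed 0.25 in males and 0 of 10 in females. Rcan3, of a family that binds and regulates calcineurin, was furthest below control at 13.5, 10.7, 11.4 and 9.56 FPKM, with differences of -0.31 in males and -0.24 in females. Ppp3r1, the regulatory subunit gene that pairs with Ppp3ca, was at 82.3, 82.7, 85.1 and 98.3 FPKM, with differences of 0.01 and 0.20, and did not share the lower values of Ppp3ca in the BPA libraries.

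In the CREB family and its coactivators, 2 of 12 passed 0.25 in males and 3 of 12 in females. Crtc2, a coactivator that joins CREB when calcineurin dephosphorylates it, was at 9.07, 12.3, 9.95 and 9.72 FPKM, with differences of 0.41 in males and -0.03 in females. Creb3l2, a relative of CREB held in the membrane of the endoplasmic reticulum, was at 3.01, 2.42, 3.51 and 1.78 FPKM, with differences of -0.23 and -0.70. Of the 12 genes 8 were higher in the BPA library in males, with a median of 0.08 against -0.002 over all rows. In females 3 were higher and 8 lower, with a median of -0.01 against -0.04 over all rows. Past 0.25 in females, 2 were higher and 1 lower. The counts lean the way Creb1 itself differed in each sex, but the female median lay above that of all rows. A link with Creb1 was not tested.

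Among the kinases upstream of CREB, 2 of 18 passed 0.25 in males, both higher, and 2 of 18 in females, both lower. Prkca, the alpha form of protein kinase C and a kinase that phosphorylates neurogranin and GAP-43, was at 17.1, 14.9, 19.6 and 12.8 FPKM, with differences of -0.19 in males and -0.58 in females and a limma value of -0.38 (standard error 0.14, adjusted p of 0.973). Rps6ka5, which encodes the CREB kinase MSK1, was at 8.56, 11.7, 11.4 and 10.1 FPKM, with differences of 0.41 and -0.16, on opposite sides as for Creb1.

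Among the calcium release channels and pumps, 2 of 14 passed 0.25 in males and 4 of 14 in females. Slc8a3, a sodium-calcium exchanger gene, was the only pathway gene of the 7 groups that passed it in the same direction in both sexes, at 3.40, 4.60, 3.96 and 5.69 FPKM, with differences of 0.35 and 0.43. Itpr2, a channel that releases calcium from the endoplasmic reticulum, was furthest below, at 2.30, 1.74, 2.69 and 2.18 FPKM, with differences of -0.27 and -0.21.

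Among known CREB target genes, 3 of 15 passed 0.25 in males, 1 higher and 2 lower, and 4 of 14 in females, 2 in each direction. The median difference was -0.14 in males and 0.06 in females, on the other side of control from Creb1 in each sex, at 0.16 and -0.15. Scg2, a precursor of secreted neuropeptides, was furthest below control at 30.6, 27.0, 34.1 and 26.8 FPKM, with differences of -0.18 and -0.34. Ppargc1a, a regulator of mitochondria, was furthest above at 4.17, 5.70, 5.92 and 6.28 FPKM, with differences of 0.37 and 0.07. Bdnf, the neurotrophin gene often used to read out CREB, was between 1.74 and 2.05 FPKM and Fos between 1.42 and 2.30 FPKM, low levels at which counting error is large.

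**Figure D5:**
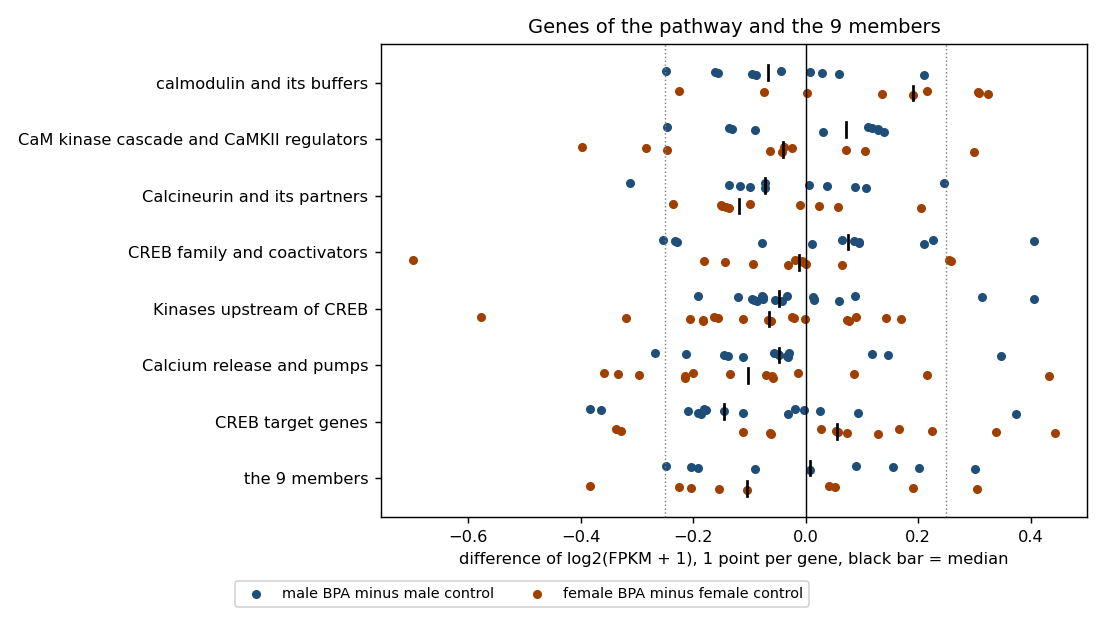
Difference of log2(FPKM + 1), BPA minus control, in males and in females for the genes of 7 pathway groups with a mean of at least 1 FPKM in that sex, and for the 9 genes in the last row, with 1 point per gene, a black bar at the median and dotted lines at 0.25 either side of 0. Most points lie within the dotted lines, with 10 genes outside the 9 past them in males and 19 in females.

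Lists of cell type markers are set beside these values, and their part in them was not tested. Of 7 astrocyte or radial glia genes, 6 were lower in the BPA library in males and 7 in females, with summed levels of 1358, 1213, 1355 and 1242 FPKM in the 4 libraries. Choroid plexus genes summed to 265, 705, 8.73 and 44.6 FPKM, of which Ttr alone made 256, 690, 3.96 and 42.4 FPKM. The other choroid plexus genes were higher in the BPA library in males but lower in females, so the higher female sum is that of Ttr. The highest of them, Folr1, was at 4.75, 6.63, 2.18 and 1.69 FPKM. Genes of meninges and vessel wall summed to 142, 140, 373 and 120 FPKM, highest in the female control library. The neuron list summed to 2845, 2922, 2764 and 3095 FPKM, the pyramidal or granule neuron list to 412, 416, 370 and 412 FPKM, and the interneuron list to 255, 250, 221 and 201 FPKM. Of the pyramidal or granule neuron list 3 of 8 genes passed 0.25 in males (2 of them higher) and 5 in females (2 of them higher). Summed levels were 45.6, 45.2, 41.3 and 43.2 FPKM for striatum, 12.7, 13.9, 12.2 and 9.96 for thalamus or hypothalamus, and 139, 108, 115 and 98.4 for the oligodendrocyte lineage. They were 37.6, 46.7, 48.2 and 44.2 FPKM for microglia, 362, 325, 316 and 407 for red blood cells, and 38.9, 34.3, 40.0 and 35.3 for cycling cells. The striatal marker Drd1 was at most 0.55 FPKM and the hypothalamic marker Sim1 at most 0.06 FPKM.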

How the data were processed

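Hippocampal RNA of 4 pooled libraries was sequenced. The authors deposited FPKM per gene and library, with 0.01 as the lowest value, and the submitters' processing notes name HISAT 0.1.6, Bowtie2 2.2.5, RSEM and the rn6 build. RSEM apportions fragments shared by like genes. Groups came from the sample labels. The 9 genes, the 7 pathway groups, the 12 marker lists and the tests were chosen with earlier results of these data known. Genes of the lists were named where they had the highest or lowest mean of the male and female differences in their group, or passed 0.25 in the same direction in both sexes, and the 3 rows most like the gene of widest range (gene ID, mean of at least 5 FPKM) were named too. Bdnf, Fos, Basp1, Marcksl1, Camkk2 and the markers Rbfox3, Map2, Snap25, Tubb3, Neurod6, Zbtb20, Drd1 and Sim1, and Ppp3cb, are described outside that rule.

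Values were compared as log2(FPKM + 1), for rows averaging 1 FPKM or more, a scale that understates changes of low genes. Comparisons of 2 against 2 libraries used limma 3.58.1 (R 4.3.3; two-sided, trended eBayes, no covariate) with Benjamini-Hochberg adjustment over 13542 rows. No test of the interaction of sex and treatment was possible. Read counts were not used here. Depth was recovered from the steps of the low values, of which 96.5% to 99.2% lay within 0.15 of a whole fragment, and intervals from it cover counting error only. Symbols were looked up in RefSeq GRCr8, whose windows gave the sequence, and coordinates of that assembly apply to the sequence alone. Ppp3r2, Ep300, Crtc3, Ryr1 and Ryr3 of the pathway groups, and Mef2c, Gbx2 and Hba-a2 of the markers, are not listed under their symbols. The limma fit was tested on simulated data. Some genes of the lists are not reported here by name. Python 3.11.15 was used with pandas 2.3.3 and scipy 1.17.1. Results were recomputed without the filter, with a minimum mean of 5 FPKM, after quantile normalization, with 0.1 as the pseudocount, a covariate, sums with new gene models, each library left out, an unadjusted p, and a difference of 0.5.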

Additional observations from a re-analysis of the deposited data

Results flagged for a closer look

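Camk2d and Creb1 stood out because their male and female differences lay on opposite sides of 0, each by more than 0.1 and outside its counting interval. Camk2d differed by 0.30 in males and by -0.38 in females on the log2(FPKM + 1) scale. Creb1 differed by 0.16 in males and by -0.15 in females. The difference between the sexes was not tested, since each sex has 1 library per treatment.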

How the results depend on the processing

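Of 270 values of single genes under an alternative, 258 kept their direction and their side of the threshold or moved little. Many of these could not change. A changed filter, a covariate or sums with new gene models left the differences of the 9 genes as they were. The limma values that kept their sign counted as kept whatever their size, such as Gap43 for treatment, 0.10 and 0.001 without female BPA. The 258 is therefore not a measure of robustness. Of values that turned sign, 10 did so when 1 library was left out and Camk2b in females did so with quantile normalization. Over the 4 such fits the BPA against control value ranged from -0.13 to 0.077 for Camk2b (0.077 without male control and 0.01 without female BPA), from -0.21 to 0.13 for Camk2d (0.13 without female control or female BPA), from -0.016 to 0.16 for Camk2g (-0.016 without male BPA) and from -0.18 to 0.18 for Creb1 (-0.18 without male control and -0.02 without female BPA). The female against male value ranged from -0.19 to 0.19 for Camk2d (-0.15 without male control and -0.19 without female control) and from -0.018 to 0.29 for Camk4 (-0.018 without female BPA). Quantile normalization gave -0.03 for Camk2b and 0.02 for Gap43 in females, and it put 4 of the 9 genes past 0.25 there (Camk2a, Camk2d, Camk4 and Nrgn) in place of 2, where 29.7% of all rows passed. At a difference of 0.5, 0 genes passed in males and 0 in females, with no share of all rows given for that size. At an unadjusted limma p under 0.05, 1 of the 9 genes passed between the sexes, where 10.6% of all rows passed. Of the other pathway genes, 10 in males became 4 with a mean of at least 5 FPKM, 16 with a pseudocount of 0.1 and 0 at 0.5, and 19 in females became 2 at 0.5. The lowest limma adjusted p of the 9 genes over the alternatives was 0.432 for treatment (Nrgn, sex as a covariate) and 0.122 for sex (Nrgn, treatment as a covariate), and the highest was 1.0. Sums with new gene models changed no value of the 9 genes, since 0 new models matched them. With 1 library per group, effects smaller than the differences between pools could not be resolved. The labels pair no replicates, and the fits with sex or treatment as a covariate, which set each library against its counterpart, called 0 of the 9 genes.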
